A study of Homo sapiens with 6 samples.

Results

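The genes described here carry peptides to the cell surface on HLA class I molecules. They are 9 rows of a gene count table of 34495 rows, chosen by symbol: the heavy chain genes HLA-B, HLA-C, HLA-E and HLA-F, the light chain gene B2M, the transporter genes TAP1 and TAP2, the tapasin gene TAPBP and the transactivator gene NLRC5. The table held messenger RNA levels of K562 cells, an established human erythroleukemia line, in 3 wild-type libraries and 3 ARID4B knockout libraries. The cell line label reads K562 for all 6 libraries, but the source name of the knockout libraries reads K565, and K562 was used. Both genotypes were grown in the same serum-containing medium, and the labels name no treatment, time point or batch. ARID4B encodes a subunit of the SIN3 histone deacetylase complex. The sources used here do not say how the gene was knocked out, nor whether replicates were separate cultures or separate clones, so the p-values measure the spread between these libraries only.

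Class I molecules show fragments of a cell's own proteins to cytotoxic T cells. The proteasome cuts proteins into peptides, the TAP1 and TAP2 transporter pumps the peptides into the endoplasmic reticulum, tapasin (TAPBP) bridges the transporter to empty class I molecules, and the heavy chain leaves for the surface bound to the B2M light chain and a peptide. Interferon gamma raises most of these genes, in part through IRF1, and NLRC5 acts with the RFX complex, CREB family factors and NF-Y on a shared set of promoter boxes. K562 cells are known for little class I protein at the surface, which makes them a standard target for natural killer cells.

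The promoter sequences of the genes on which the results turn are shown. HLA-B and HLA-C share a box arrangement, and TAP1 and TAP2 belong to one transporter. They are the 250 bases before the RefSeq start on GRCh38.p14, 5′ to 3′, and 7 of 9 members matched the table (HLA-E and NLRC5 did not). Windows are chr6:31357180-31357429 (minus strand) for HLA-B, chr6:31272093-31272342 (minus) for HLA-C, chr15:44711267-44711516 (plus) for B2M, chr6:32853705-32853954 (minus) for TAP1 and chr6:32838740-32838989 (minus) for TAP2. Capitals mark letters that match, on either strand, CCAAT (the Y box bound by NF-Y), TGACG (core of the X2 box bound by CREB family factors), the interferon-stimulated response element (GAAA, any 2 bases, GAAA), a site of NF-kB (GGGGA, any 1 base, TCCCC) or TTCNNNGAA (a STAT site).
HLA-B: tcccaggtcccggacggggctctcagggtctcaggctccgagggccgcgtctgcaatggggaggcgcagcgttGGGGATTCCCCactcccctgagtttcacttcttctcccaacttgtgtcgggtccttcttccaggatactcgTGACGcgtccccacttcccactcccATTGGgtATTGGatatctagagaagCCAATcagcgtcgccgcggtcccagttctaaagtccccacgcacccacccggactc
HLA-C: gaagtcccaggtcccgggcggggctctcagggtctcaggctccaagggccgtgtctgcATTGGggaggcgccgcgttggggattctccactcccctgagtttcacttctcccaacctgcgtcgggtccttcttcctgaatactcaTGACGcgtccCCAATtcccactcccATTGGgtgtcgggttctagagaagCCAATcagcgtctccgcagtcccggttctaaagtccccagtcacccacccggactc
B2M: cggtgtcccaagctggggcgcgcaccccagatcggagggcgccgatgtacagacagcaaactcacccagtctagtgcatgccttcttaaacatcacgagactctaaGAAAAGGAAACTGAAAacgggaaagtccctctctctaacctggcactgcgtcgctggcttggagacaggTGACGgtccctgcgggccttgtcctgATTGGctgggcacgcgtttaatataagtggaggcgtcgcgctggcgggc
TAP1: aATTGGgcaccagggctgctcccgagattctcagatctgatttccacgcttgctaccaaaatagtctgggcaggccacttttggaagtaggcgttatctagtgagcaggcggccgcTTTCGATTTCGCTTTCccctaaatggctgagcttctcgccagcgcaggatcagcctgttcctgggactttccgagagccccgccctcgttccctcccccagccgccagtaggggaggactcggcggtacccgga
TAP2: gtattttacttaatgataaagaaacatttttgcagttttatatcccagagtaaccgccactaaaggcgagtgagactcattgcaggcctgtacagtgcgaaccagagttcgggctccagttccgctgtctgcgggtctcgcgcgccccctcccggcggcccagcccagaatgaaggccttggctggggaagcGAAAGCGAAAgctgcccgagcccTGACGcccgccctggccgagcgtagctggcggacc

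Read from the start, HLA-B held TGACG at 106 bases before it and Y box letters at 81, 74 and 56 bases before it. HLA-C held TGACG at 105 bases and Y box letters at 192, 95, 80 and 56 bases. HLA-F, whose window is not printed, held Y box letters at 82 and 57 bases, 1 interferon response match at 156 bases and 0 TGACG matches. In B2M, 2 overlapping interferon response matches began 144 and 138 bases before the start, with TGACG at 75 and the Y box at 49. At its printed start TAP1 had 2 overlapping interferon response matches at 134 and 128 bases and Y box letters at 249 bases. A second listed start of TAP1 (chr6:32852762-32853011, minus strand), whose window is not printed, held a STAT match at 189 bases and no other match. TAP2 had 1 interferon response match at 58 bases with TGACG at 35, and TAPBP 2 overlapping ones at 20 and 14 bases. Of 35116 promoter windows of the same length, 32% held the Y box letters, 21.2% TGACG, 3.02% the interferon response letters, 0.0655% the NF-kB letters found in HLA-B and 6.57% the STAT letters. These are reference sequences and letter matches. The alleles of K562 were not examined, and no binding was measured.

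Library totals ran from 21701404 to 30346244 estimated counts. Levels are given as CPM, counts scaled to library size with TMM factors, and differences as the log2 ratio of knockout to wild type, each with a standard error (SE). The test was edgeR's quasi-likelihood F test over all 13696 genes that passed the expression filter, with Benjamini-Hochberg adjustment and a threshold of 0.05. ARID4B measured 38.4, 41 and 40.9 CPM in wild type and 8.52, 7.22 and 7.68 CPM in the knockout (log2 fold change -2.36, SE 0.10, edgeR adjusted p = 0.000132), and the groups did not overlap. Of all tested genes 33.7% were called, 18.3% as higher and 15.4% as lower, and the knockout libraries varied more among themselves than the wild-type libraries, with biological coefficients of variation of 32.3% and 4.81%. Scaling by library totals alone moved the median of all genes from 0.02 to 0.13 (log2) and the share of higher genes among the calls from 54.4% to 70.9%. The 10 erythroid and megakaryocytic markers of K562, globin genes and GATA1 among them, were all tested, 1 rose and 3 fell, and they summed to between 16831 and 18276 CPM in wild type and 15933 and 29883 CPM in the knockout.

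Most of the class I genes that could be tested stood higher without ARID4B. Of the 9 members, 6 passed the expression filter, each with at least 45 counts in every wild-type library, and of these 4 rose (HLA-C, HLA-E, TAP1 and TAPBP) against a background of 18.3% of tested genes, 2 did not pass (B2M and TAP2) and 0 fell. With edgeR 0 members were lower at an unadjusted p under 0.05 either, and DESeq2 and limma-voom called 0 lower. The median log2 fold change of the 6 tested members was 1.14, beside 0.02 over all genes. In the 4 that rose, the lowest knockout library exceeded the highest wild-type library, a separation found in 26.6% of all tested genes, and the reverse separation, found in 25.7%, occurred in 0 of the 6. HLA-B, HLA-F and NLRC5 were near 0 in both genotypes and were not tested.

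**Figure D1:**
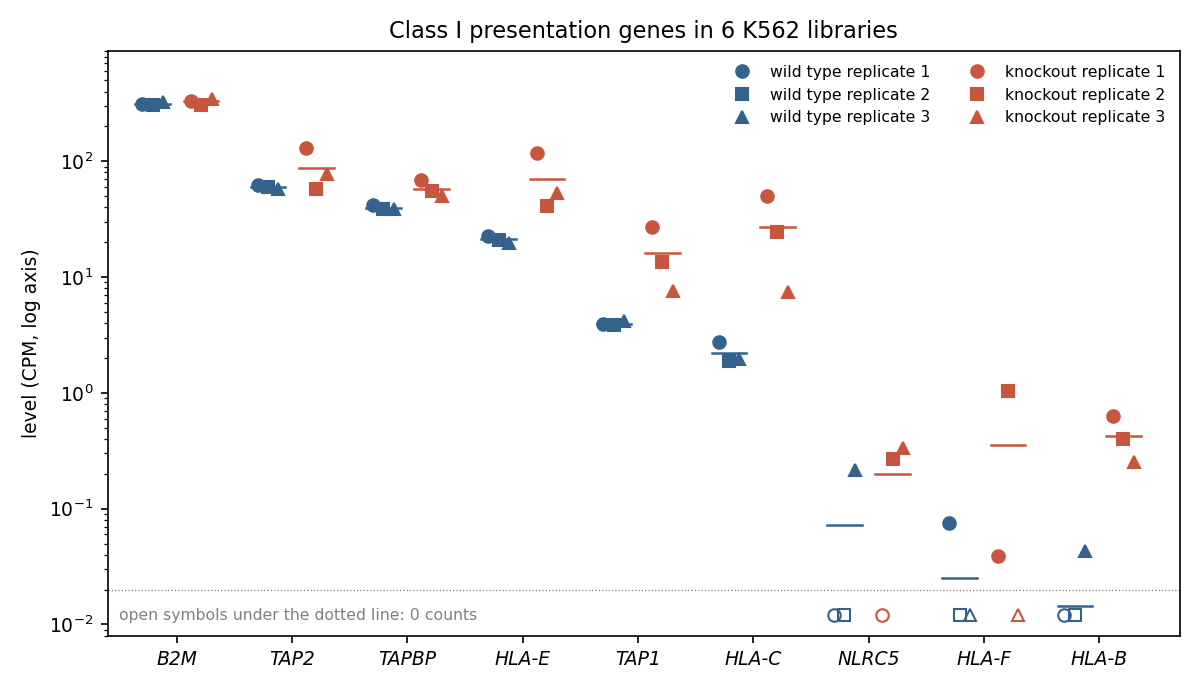
Level in CPM (log axis) of the 9 class I presentation genes in each of the 6 libraries, with a horizontal line at the mean of each genotype. B2M stayed between 303 and 348 CPM, HLA-C, HLA-E, TAP1 and TAPBP had all knockout libraries above all wild-type libraries, and NLRC5, HLA-F and HLA-B lay near or at 0 counts.

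Of the 2 heavy chains that could be tested, HLA-C, a classical class I molecule that also engages killer immunoglobulin-like receptors, had the larger fold change. It was nearly silent in wild type at 2.74, 1.88 and 1.95 CPM and reached 49.9, 24.5 and 7.39 CPM in knockout replicates 1, 2 and 3. The groups did not overlap, and the knockout libraries differed 6.76-fold among themselves. The mean went from 2.19 ± 0.479 (SD, n = 3) to 27.3 ± 21.4 CPM (n = 3), a log2 fold change of 3.64 (SE 0.68, edgeR adjusted p = 0.00831), or 12.4-fold. With limma-voom the adjusted p was 0.0621.

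HLA-E, a nonclassical heavy chain that binds leader peptides of other class I chains and is the ligand of the NKG2A receptor, had the highest wild-type level of these 4 per kilobase of transcript. It measured 22.6, 21 and 19.6 CPM in wild type and 117, 40.8 and 53.7 CPM in the knockout. All knockout libraries were above wild type, and replicate 1 stood well above the other 2. The log2 fold change was 1.74 (SE 0.38, edgeR adjusted p = 0.014), or 3.35-fold. Leaving out any one wild-type library ended the call (adjusted p 0.059 to 0.065, log2 fold change 1.67 to 1.78).

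HLA-B, the most variable of the classical heavy chains between people, was almost absent: 0, 0 and 1 estimated counts in wild type and 16.3, 9.17 and 6.04 in the knockout. The ratio of summed counts was 34.1 with an exact (Clopper-Pearson) 95% interval of 5.68 to 1390, which covers counting error only. At 0.625, 0.401 and 0.252 CPM the knockout libraries all lay above wild type, but the highest of them remained far under the HLA-C level of the same library. HLA-F, a nonclassical chain, had 2, 0 and 0 counts in wild type and 1, 22.81 and 0 in the knockout, so that nearly all its counts came from knockout replicate 2. An antisense row that overlaps HLA-F measured 1.08 to 1.54 CPM in wild type and 2.62 to 2.99 CPM in the knockout, and the sources used here do not say whether counting used strand.

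The heavy chains were also set against each other. HLA-B, HLA-C, HLA-E and HLA-F together came to 25.5, 22.9 and 21.5 CPM in wild type and 168, 66.7 and 61.3 CPM in the knockout. HLA-E made up 88.9%, 91.8% and 90.8% of that sum in wild type and 69.9%, 61.2% and 87.5% in the knockout, where replicate 3 was close to wild type. The ratio of HLA-C to HLA-E was 0.121, 0.0893 and 0.0996 in wild type and 0.426, 0.6 and 0.138 in the knockout, without overlap (exact permutation test, two-sided p = 0.1, adjusted p = 0.1 over 3 ratios, the smallest that 3 against 3 libraries can give). The HLA-B row lists transcripts from 31237743 to 31324989 on chromosome 6 (hg19) and so overlaps part of that of HLA-C (31236526 to 31239913). RSEM divides reads that fit several genes. Their sum, 1.88 to 2.74 CPM in wild type and 7.64 to 50.6 CPM in the knockout, does not depend on how reads were divided between these rows. Class I genes differ between people, the rows combine several reference haplotypes of chromosome 6, and whether reads of alleles carried by K562 were lost was not tested.

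B2M, the light chain shared by all these heavy chains (chromosome 15, 45003685 to 45010357 on hg19), was abundant in both genotypes. It measured 313, 303 and 328 CPM in wild type and 331, 308 and 348 CPM in the knockout. The groups overlapped, and the log2 fold change was 0.06 (SE 0.07, edgeR adjusted p = 0.521). Over 14 alternative analyses it ranged from -0.01 to 0.18 and passed the threshold in 0. Set beside the heavy chains, B2M stood at 12.3, 13.2 and 15.2 times their summed CPM in wild type and at 1.97, 4.61 and 5.68 times in the knockout.

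The peptide transporter was unequal in its subunits. TAP1 (chromosome 6, 32812986 to 32821748 on hg19) measured 3.94, 3.83 and 4.15 CPM in wild type and 27.2, 13.6 and 7.51 CPM in the knockout. Wild-type libraries were tightly grouped and all knockout libraries lay above them, in the same order as for HLA-C. The log2 fold change was 2.02 (SE 0.45, edgeR adjusted p = 0.0148), or 4.06-fold, and without any one wild-type library it missed the threshold (0.0627 to 0.0668). A row that overlaps those of TAP1 and PSMB8, LOC100507463, had 0 CPM in wild type and 1.13, 0.446 and 0.294 CPM in the knockout.

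TAP2 (32781500 to 32806547) was already at 62.8, 60.4 and 57.8 CPM in wild type and measured 129, 57.4 and 77.3 CPM in the knockout. Knockout replicate 2 lay below the wild-type range, so the groups overlapped. The log2 fold change was 0.54 (SE 0.27, edgeR adjusted p = 0.165). Without knockout replicate 2 it was 0.77 with an adjusted p of 0.0361. The ratio of TAP2 to TAP1 in CPM went from 15.9, 15.8 and 13.9 in wild type to 4.74, 4.21 and 10.3 in the knockout, again without overlap (exact permutation test, two-sided p = 0.1, the smallest possible).

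TAPBP, which encodes tapasin (33267472 to 33282164), rose least of the 4 called members. It measured 42, 38.8 and 38.4 CPM in wild type and 68.2, 55.1 and 50.5 CPM in the knockout, without overlap. The log2 fold change was 0.54 (SE 0.12, edgeR adjusted p = 0.0155), or 1.46-fold, the same size as that of TAP2, whose SE was 0.27. A row that overlaps TAPBP, NGS-17, measured 1.88 to 2.97 CPM in wild type and 2.77 to 4.61 CPM in the knockout. Leaving out any one wild-type library gave adjusted p of 0.0524 to 0.0739.

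NLRC5, the transactivator of class I promoters (chromosome 16, 57023459 to 57117436 on hg19), stayed near the limit of detection. It had 0, 0 and 5 counts in wild type and 0, 6 and 8 in the knockout. The ratio of summed counts was 3.08 with an exact 95% interval of 1.05 to 10.9 for counting error only, and the libraries overlapped. Knockout replicate 1, which held the highest HLA-C, HLA-E, TAP1, TAP2 and TAPBP levels, had no NLRC5 count, where 3 counts would be 0.117 CPM. Any relation of NLRC5 to the levels of these genes was not tested.

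Compared per kilobase of the RefSeq-linked transcript, the order of wild-type levels was B2M at 334 CPM per kilobase, TAP2 at 14.8, HLA-E at 8.1, HLA-C at 1.43 and TAP1 at 1.34. HLA-C and TAP1 overlapped in wild type, and the other neighbours in that order did not. HLA-F, NLRC5 and HLA-B followed, all under 0.02 CPM per kilobase and overlapping. In the knockout HLA-E stood at 27.1 ± 15.7 CPM per kilobase (SD, n = 3), TAP2 at 21.5 ± 9.06, HLA-C at 17.8 ± 13.9 and TAP1 at 5.45 ± 3.41, and B2M remained highest at 349 ± 21.8. TAPBP had no linked transcript length and was not placed.

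The immunoproteasome swaps interferon-inducible catalytic subunits into the proteasome and favours peptides that fit class I. Of its 5 tested genes 3 rose, 0 fell and 2 did not pass, beside 18.3% of all tested genes higher, with 1 rise left without any one wild-type library. PSMB8 went from 0.225, 0.239 and 0.216 CPM to 7.89, 3.39 and 2.73 CPM, a log2 fold change of 4.33 (SE 0.52, edgeR adjusted p = 0.00242), and passed in every alternative. With 6, 7 and 5 wild-type counts it passed the expression filter through the knockout libraries. PSMB9, which starts next to TAP1 on the opposite strand, went from 0.488, 0.683 and 0.649 CPM to 6.99, 4.82 and 1.01 CPM (log2 fold change 2.81, SE 0.68, edgeR adjusted p = 0.0207). PSMB9 missed the threshold with limma-voom (0.099), with a replicate block (0.0506) and without any one wild-type library (0.0771 to 0.0893).

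PSMB10, the third inducible catalytic subunit, lies outside the MHC and had the opposite sign: 30.3, 27.1 and 26.4 CPM in wild type and 25.9, 20.1 and 23.3 CPM in the knockout (log2 fold change -0.27, edgeR adjusted p = 0.126). It passed as lower without knockout replicate 1 (adjusted p = 0.0419). The ratio of PSMB8 to PSMB10 therefore went from 0.00743, 0.00883 and 0.00821 to 0.305, 0.169 and 0.117 (exact permutation test, two-sided p = 0.1, the smallest possible). PSME1, a subunit of the proteasome activator, had wild-type and knockout means of 32.8 ± 0.492 and 58.4 ± 15 CPM (SD, n = 3 each), a rise of 0.83 on the log2 scale (adjusted p = 0.012), and its partner PSME2 measured 59.3 ± 2.97 and 76.8 ± 12.5 CPM (0.37, adjusted p = 0.0597).

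**Figure D2:**
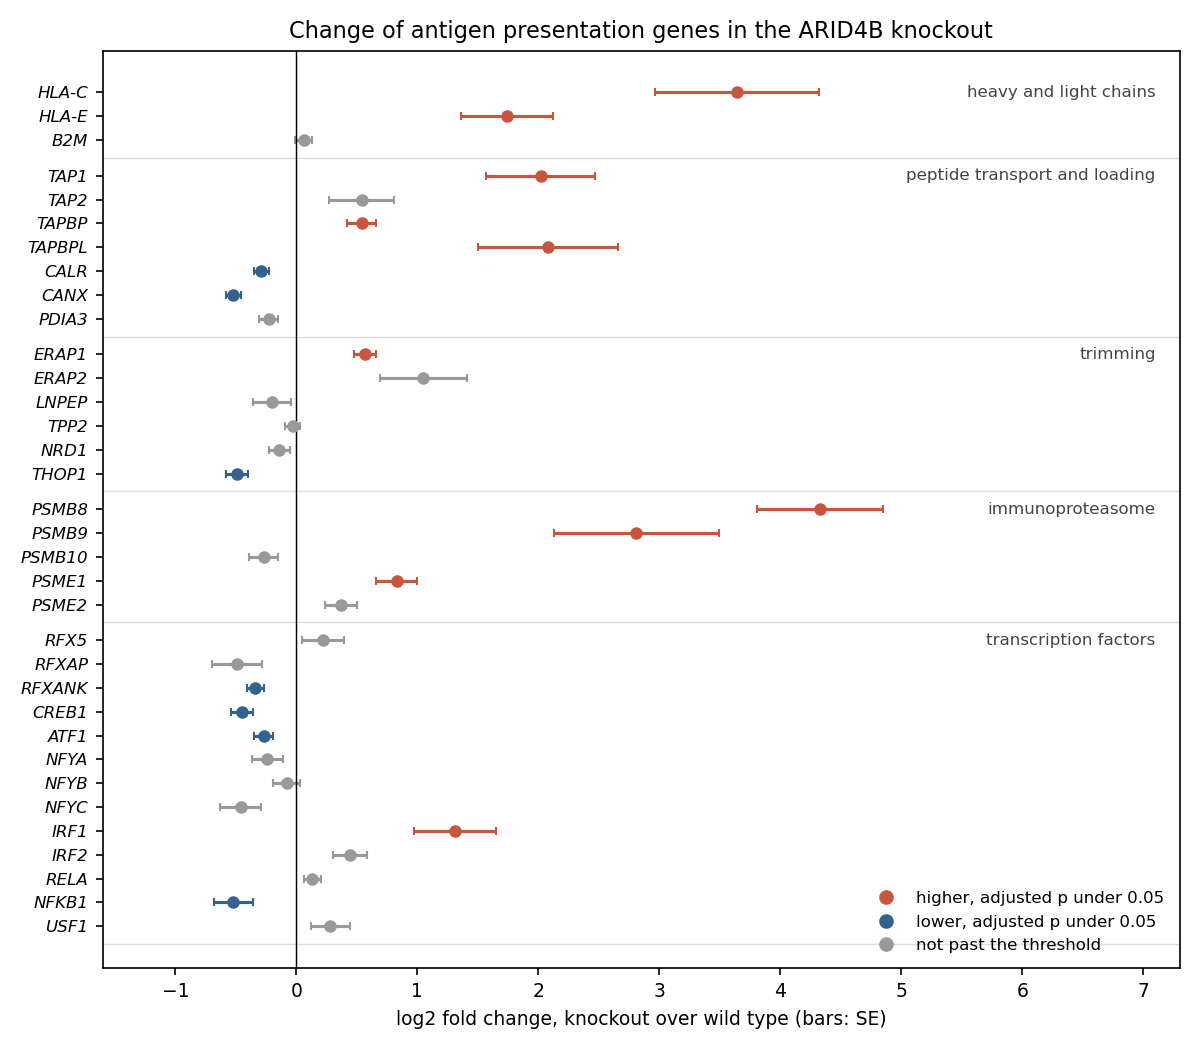
Log2 fold change of knockout over wild type with its SE for tested genes of class I presentation, grouped by role. HLA-C, HLA-E, TAP1, PSMB8 and PSMB9 lie between 1.74 and 4.33, while B2M (0.06) and the chaperones CALR (-0.29) and CANX (-0.52) do not follow them.

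Genes for loading and trimming moved in both directions. Of 12 tested, 2 rose and 4 fell, beside 18.3% and 15.4% of all tested genes, and the list's median log2 ratio was -0.22. TAPBPL, a tapasin relative that edits peptides on class I, rose from 0.338, 0.376 and 0.346 CPM to 2.81, 0.981 and 0.714 CPM (2.08, adjusted p = 0.0336, past the expression filter through the knockout libraries). This call was lost with limma-voom (0.0736), with a replicate block (0.0602) and without any one wild-type library (0.112 to 0.118). ERAP1, which trims peptides in the endoplasmic reticulum, rose from 34.3 to 51 ± 4.18 CPM (0.57, adjusted p = 0.00439). The lectin chaperones CANX and CALR had log2 fold changes of -0.52 and -0.29 (adjusted p = 0.00201 and 0.0148), and the cytosolic peptidase THOP1, which destroys peptides, fell by 0.49 (adjusted p = 0.00655). CALR missed the threshold with library totals alone (0.0968) or upper quartile factors (0.0536) and without any one wild-type library (0.0523 to 0.0585), and with library totals alone the list held 3 rises and 3 falls.

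Among 13 factors that act on class I promoters, 1 rose, 4 fell and 8 did not pass, beside 18.3% higher and 15.4% lower over all tested genes. IRF1, the interferon-induced activator, measured 5.44, 5.81 and 5.93 CPM in wild type and 20, 15.3 and 7.47 CPM in the knockout (log2 fold change 1.31, SE 0.34, edgeR adjusted p = 0.0256). The knockout libraries all lay above wild type, in the order seen for HLA-C and TAP1. The call was lost with limma-voom (0.06), with a replicate block (0.0504), without any one wild-type library (0.0885 to 0.0981) and without knockout replicate 2 (0.0562). RFX5, the DNA-binding subunit of the RFX complex, measured 33.2 and 38.8 CPM (0.22, adjusted p = 0.345, and 0.39 with 0.0148 without knockout replicate 2). CREB1 and NFKB1 fell by 0.45 and 0.52 (adjusted p = 0.0127 and 0.0439). CREB1 missed the threshold without any one wild-type library (0.0518 to 0.0548). NFKB1 missed it there (0.0948 to 0.142), without knockout replicate 1 (0.0703) or 2 (0.07) and with a replicate block (0.0739). Scaling NFKB1 by upper quartile factors (0.0751) or by library totals (0.0885) also ended its call. With library totals alone the counts of this list turned to 3 rises and 1 fall, and without any one wild-type library there were 0 rises and 0 or 1 fall.

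Of 11 tested genes of interferon and JAK-STAT signalling 4 rose, 1 fell and 6 did not pass, beside the same 18.3% and 15.4%. The interferon gamma receptor genes IFNGR1 and IFNGR2 did not pass (log2 fold changes 0.25 and -0.2, edgeR adjusted p = 0.385 and 0.194). JAK2, a kinase of the interferon gamma receptor, measured 39.1 and 29.9 CPM (-0.39, adjusted p = 0.0736). It passed as lower with DESeq2 (0.0474), with limma-voom given a separate spread for each genotype (0.0437) and without knockout replicate 3 (0.0199). The kinase JAK1 of the same list rose from 79 to 120 ± 15 CPM (0.6, edgeR adjusted p = 0.00684), with every knockout library above wild type. STAT2 rose from 31.6 to 56.2 ± 3.92 CPM (0.83, adjusted p = 0.00135), and PTPN2, a phosphatase that damps JAK and STAT signals, fell from 56.4 to 39.4 ± 2.06 CPM (-0.52, adjusted p = 0.00395). SOCS1, a feedback inhibitor, rose 1.08 on the log2 scale (adjusted p = 0.0198) but not without any one wild-type library (0.0666 to 0.0941).

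The knockout libraries did not share the change evenly. Knockout replicate 1 was the highest of all 6 libraries for 5 of the 6 tested members, all but B2M, while it was the highest for 24.4% of tested genes. Replicate 1 stood above 2 and 2 above 3 for HLA-C, TAP1 and TAPBP among the members, an order found in 18.8% of tested genes. The immunoproteasome genes PSMB8, PSMB9, PSME1 and PSME2 had the same order, and PSMB10 did not. IRF1, TAPBPL and ERAP1 had it too, but they were chosen singly from their lists, so that share is no background for them. HLA-E, TAP2, B2M and PSMB10 had replicate 2 as the lowest knockout library. Over the wild-type mean, HLA-C was 4.51, 3.48 and 1.75 higher (log2) in knockout replicates 1, 2 and 3, and TAP1 was 2.78, 1.78 and 0.92 higher. Without knockout replicate 1 the 4 calls among members held, and the median log2 fold change of the 6 tested members was 0.79.

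**Figure D3:**
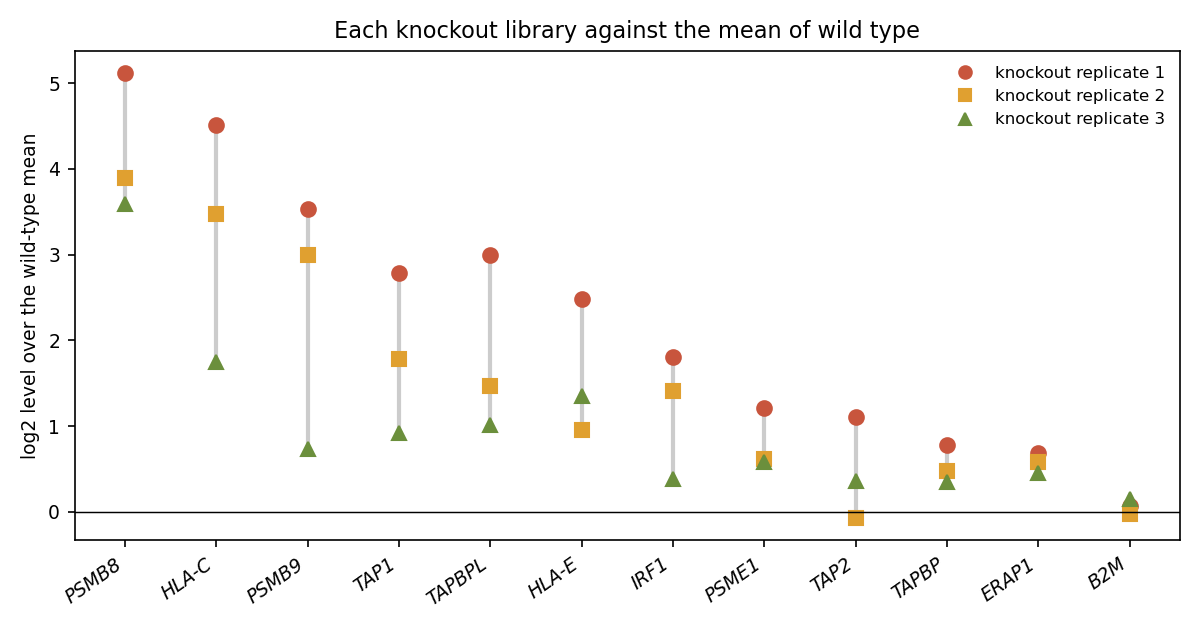
Log2 level of each knockout library over the wild-type mean for 12 class I presentation genes. Knockout replicate 1 is highest in all but B2M, with HLA-C at 4.51, 3.48 and 1.75 in replicates 1 to 3, and B2M lies within 0.15 of wild type in all.

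Most members lie in the MHC region of chromosome 6, whose other genes were examined for a shift of the whole region. In a window from -3290 kb to 575 kb of the first base of the TAP1 row, 112 genes were tested, 36 of them (32.1%) higher and 13 (11.6%) lower, beside 18.3% and 15.4% of all tested genes. Without the class I members and immunoproteasome genes 30 of 105 (28.6%) were higher and 13 (12.4%) lower, and their median log2 fold change was 0.16, beside 0.02 over all genes. The median of the 25 nearest tested genes on each side of HLA-C, members left out, was 0.08, 0.11 and 0.07 in knockout replicates 1 to 3, and around TAP1 it was 0.05, 0.13 and 0.14. With these medians removed, 4 members again passed. PSMB8, TAP1 and PSMB9, at -4, 0 and 9 kb on this scale, had log2 fold changes of 4.33, 2.02 and 2.81, while TAP2, at -31 kb, had 0.54.

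**Figure D4:**
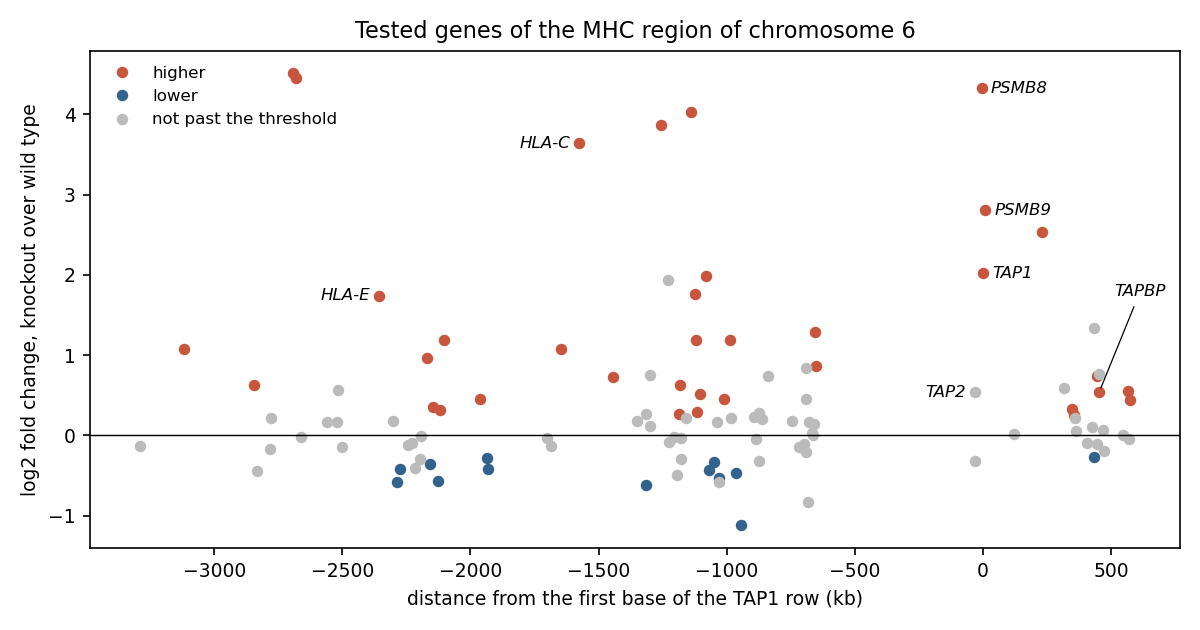
Log2 fold change of every tested gene of the MHC region of chromosome 6 against the distance in kb from the first base of the TAP1 row, coloured by its call. PSMB8 (4.33) and HLA-C (3.64) are among the high points, but several genes that are no members lie as high, and the genes other than members and immunoproteasome genes have a median of 0.16.

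Class II molecules, which present peptides to helper T cells, stayed close to silent. Of 15 listed genes 12 were under 1 CPM in every library. Of the 4 that passed the filter 1 rose and 1 fell, beside 18.3% and 15.4% of all tested genes. CIITA, the class II relative of NLRC5, had 0 counts in all 6 libraries, where 3 counts would be 0.103 to 0.134 CPM. HLA-DPB1 rose from 0.0375, 0.205 and 0.173 to 0.586, 0.714 and 1.18 CPM (2.53, adjusted p = 0.0186), and IFI30, a lysosomal thiol reductase, fell from 78.4 to 29.8 ± 10.9 CPM (-1.39, adjusted p = 0.00764). HLA-DPB1 passed the expression filter through the knockout libraries, and without any one wild-type library 0 genes of this list rose. HLA-DPA1 was not tested, at 5 summed counts in wild type and 33 in the knockout, where every library lay above wild type. CD74, the invariant chain that guards class II grooves, was not tested at 4 summed counts in wild type and 11 in the knockout.

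Other class I and class I-like molecules were higher in part. Of 22 listed, 8 were tested, 5 rose and 0 fell, beside 18.3% higher and 15.4% lower over all tested genes, and 3 rose without any one wild-type library. ULBP2, a ligand of the activating natural killer receptor NKG2D, rose from 0.938, 0.41 and 0.779 to 12.5, 18.9 and 25.4 CPM (4.74, adjusted p = 0.000996), and ULBP1 from 2.85 to 16.3 ± 3.01 CPM (2.51, adjusted p = 0.000805). Their highest library was knockout replicate 3, not replicate 1. The minimum of the expression filter is scaled to library size. With 12 counts in wild-type replicate 2, the largest library, ULBP2 passed it through the knockout libraries. HLA-G, a nonclassical chain of the placenta, had 2 counts in knockout replicate 2 and 0 elsewhere. Of 4 tested NOD-like receptors related to NLRC5, NOD1 rose by 0.77 (adjusted p = 0.0365), lost without any one wild-type library (0.0914 to 0.133), and 3 did not pass. This list also held 0 rises with a replicate block, with no expression filter and without knockout replicate 1 or 2.

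Likeness to HLA-E was the root mean square difference over the 6 libraries of log2 levels, each gene centred on its own wild-type mean. Among tested genes with a mean of at least 5 CPM, the most like were GMFG (0.147), the sialyltransferase gene ST6GAL1 (0.158) and TMEM54 (0.181). GMFG measured 6.49, 6.08 and 6.49 CPM in wild type and 39, 14.6 and 18.3 CPM in the knockout. NLRC5 was not tested and so was not compared.

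Markers of other blood and tissue cells were measured beside these genes. The 4 fibroblast markers summed to between 8.78 and 9.46 CPM in wild type and 41.6 and 237 CPM in the knockout, all but a small part from COL1A1 and COL1A2, both called higher, while DCN and PDGFRB stayed at or under 0.352 CPM. COL1A2 was at 14.7, 201 and 230 CPM in knockout replicates 1 to 3, lowest where HLA-C was highest, while COL1A1 was at 26.4, 28.9 and 7.22 CPM, lowest where HLA-C was lowest. COL1A1, with 5 counts in wild-type replicate 2, passed the expression filter through the knockout libraries. The part of the fibroblast and the other markers in the class I values was not tested. Of 7 T and NK cell markers 6 were under 1 CPM in every library, with CD8A and GNLY at 0, and the list summed to 3.9 to 4.11 CPM in wild type and 4.03 to 14.6 CPM in the knockout. The 4 endothelial markers summed to 1.8 to 2.12 CPM and 1.96 to 6.8 CPM. Among them KDR had 103 counts (4.03 CPM) in knockout replicate 1, the library with the highest HLA-C, HLA-E, TAP1, TAP2 and TAPBP, and at most 3 counts in any other library, while CDH5 and TEK stayed at or under 0.156 CPM. All 5 B cell markers were under 1 CPM. Of monocyte and dendritic cell markers LYZ alone passed 1 CPM, at 20.3 to 21.3 CPM in wild type and 14.6 to 51.8 CPM in the knockout. In bulk samples more cells with a transcript and more transcript per cell cannot be told apart.

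The authors' deposited table of their own comparison lists 5 of the 9 members: HLA-B, HLA-C, HLA-E, TAP1 and TAPBP. Their log2 fold changes in the authors' deposited table are 3.08, 3.5, 1.86, 2.07 and 0.79, all upward. Its adjusted p-values, from the authors' deposited table, are 0.0374, 0.0961, 0.171, 0.135 and 0.0882, so HLA-B alone was under 0.05 there. In the same authors' deposited table PSMB8 has 4.18 with an adjusted p of 0.0233. All genes in the authors' deposited table have an unadjusted p up to 0.05 and an absolute log2 fold change of at least 0.591. A member can therefore be missing from it on either count. It lists 3153 genes, beside 34495 rows of the count table.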

How the data were processed

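Messenger RNA of 3 wild-type and 3 ARID4B knockout K562 libraries was sequenced as stranded paired ends, per the labels' protocols. The authors deposited estimated counts per gene without normalization, and the submitters' processing notes name STAR 2.4, RSEM 1.2.14 and the builds hg19 and GRCh37. A second deposited table gives the authors' log2 fold changes and p-values for 3153 genes, and the sources used here do not name its test. Between 6.9% and 11.7% of a library's values were not whole. Counts were rounded and tested with edgeR 4.0.16 (R 4.3.3), TMM scaling and the default filter (minimum count 10). The SE is the log2 fold change over the root of F. DESeq2 1.42.0, limma 3.58.1, other scalings, no filter, an offset for 25 neighbouring genes each side, a replicate block and leaving out each library were alternatives. Starts had 1 added. Transcript lengths came from GENCODE transcripts linked to the RefSeq accessions. Totals of 21701404 to 30346244 limit precision for genes under about 3 counts.

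The members, gene lists, motifs and tests were chosen with earlier results of these data known. Named genes were all members, ARID4B, 13 preset pathway genes and up to 2 each way per list among calls of at least 1 CPM. The 3 genes most like NLRC5 and the leading heavy chain were also to be named. PSME1, PSME2, HLA-DPA1, HLA-DPB1, IFNGR1, IFNGR2, JAK1, cell type markers and overlapping genes were named after their values were seen. Intervals and floors cover counting error only. The calculation was tested on simulated data with the same spread in both genotypes, so the unequal spread of these libraries was not covered. One preset gene is not reported here.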

Additional observations from a re-analysis of the deposited data

How the results depend on the processing

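Among the members, HLA-C, HLA-E, TAP1 and TAPBP stayed above wild type in all 14 alternatives and 0 results reversed. The number that rose was 1 without any one wild-type library, against 4, and 1 is then HLA-C. It was 4 or 5 without a knockout library. Over all genes 2512 rose and 2107 fell. Without a wild-type library 1156 to 1243 rose and 941 to 1106 fell, and the cause was not tested. Over all 6 such omissions the ranges were 1156 to 2921 and 941 to 2548. With library totals alone 1283 fell. Of 25 named genes past the threshold 12 failed it when each wild-type library in turn was left out and 12 passed in every alternative. The replicate numbers did not pair the libraries: deviations of same-numbered libraries correlated at 0.0121, 0.018 and 0.00996. With a replicate block 1872 genes rose and 1577 fell, and 4 members rose. HLA-B, HLA-F and NLRC5 are limited by depth. With no expression filter HLA-B had a log2 fold change of 4.54 (edgeR adjusted p = 0.023), HLA-F 3.52 (0.209) and NLRC5 1.45 (0.511).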

Other observations

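The pseudogene HLA-J had 14 counts in knockout replicate 2 and 0 in all other libraries, HLA-L had 1 count in knockout replicate 1 and 0 elsewhere, and HLA-H had 0 in all 6. HLA-J and HLA-L were named after their values were seen, and no test was made on these counts.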
